A study of Mus musculus with 6 samples.

Results

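The miR-17-92 cluster is a polycistron on mouse chromosome 14, 6 microRNA hairpins cut from the primary transcript Mir17hg. It was followed here through its 10 mature miRNAs that are listed by name: miR-17-5p, miR-17-3p, miR-18a-5p, miR-18a-3p, miR-19a-3p, miR-20a-5p, miR-20a-3p, miR-19b-3p, miR-92a-3p and miR-92a-1-5p. All 10 names were found among the 1907 distinct mature miRNAs of the deposited small RNA sequencing table. The samples were livers of C57BL/6N mice aged 12 weeks, 3 females and 3 males, littermates in normal health on a chow diet. Which animals shared a litter is unknown here. No animal was treated, injured or genetically altered. The study concerns acute liver injury that depends on sex, and the comparison asks whether the miRNAs of healthy liver differ between females and males.

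The cluster is known as an oncogenic miRNA polycistron that MYC and E2F factors switch on in proliferating cells, and it is often raised in liver cancer. A miRNA finds its target messages mainly through its seed, bases 2 to 8 from the 5′ end. The cluster carries 4 seeds: the miR-17 and miR-18 families repress cell-cycle inhibitors and TGF-beta signalling genes, the miR-19 family is known as the main oncogenic part of the cluster, and the miR-92 family is known for restraining vessel growth through Itga5. Each hairpin yields a 5p and a 3p arm, of which one usually accumulates and the other is mostly degraded.

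The mature sequences, from RefSeq on build GRCm38.p6, are shown because the seeds set the families and because single bases separate some members from their paralogues. Capitals mark the seed, bases 2 to 8.
miR-17-5p: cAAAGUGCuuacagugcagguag
miR-20a-5p: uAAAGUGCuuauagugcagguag
miR-18a-5p: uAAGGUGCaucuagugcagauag
miR-19a-3p: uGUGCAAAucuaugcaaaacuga
miR-19b-3p: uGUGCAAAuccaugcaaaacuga
miR-92a-3p: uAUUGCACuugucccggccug
miR-17-3p: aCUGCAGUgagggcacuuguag
miR-18a-3p: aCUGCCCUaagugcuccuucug
miR-20a-3p: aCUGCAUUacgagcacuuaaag
miR-92a-1-5p: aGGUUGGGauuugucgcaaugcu
The first 6 are the abundant arms of the 6 hairpins and hold 4 distinct seeds. miR-17-5p and miR-20a-5p share theirs, and with positions counted from the 5′ end they differ by C1U and C12U. miR-19a-3p and miR-19b-3p share theirs and differ by U11C alone. The last 4 are partner arms, each with a seed of its own among the members. The members are 21 to 23 bases long, so their levels as CPM can be set side by side without a correction for length.

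On the plus strand of GRCm38.p6, the 6 hairpins span 836 bases, chr14:115043671-115044506. In order, miR-17-5p lies at chr14:115043684-115043706, miR-18a-5p at chr14:115043867-115043889, miR-19a-3p at chr14:115044048-115044070 and miR-20a-5p at chr14:115044183-115044205. They are followed by miR-19b-3p at chr14:115044358-115044380 and miR-92a-3p at chr14:115044476-115044496. Each lies within an annotated exon of the long non-coding gene Mir17hg (chr14:115042879-115046727, GENCODE M21). The sequences of miR-19b-3p and miR-92a-3p are also made at the paralogous cluster of the X chromosome, at chrX:52741991-52742013 and chrX:52741854-52741874 on the minus strand. The deposited table gives each of these 2 a single count and lists it at the X position. The other 8 members have 1 locus each.

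The libraries held 3285249 to 5756418 counts in females and 4617647 to 16444674 in males, with male replicate 3 the deepest. The hepatocyte miRNA miR-122-5p took 32.5 to 33.8% of the counts in females and 33.8 to 35.5% in males. Summed leukocyte markers, 6 of 6 in the table, stood at 4042 to 4596 CPM in females and 2903 to 4456 CPM in males. The 2 endothelial markers summed to 67756 to 71793 CPM in females and 68742 to 76012 CPM in males. The sexes separated for the 7 hepatocyte markers (395882 to 398982 CPM in females, 421121 to 466040 CPM in males) and the 5 stromal markers (8915 to 11436 CPM in females, 12109 to 12795 CPM in males). They overlapped for the 5 erythroid markers (224 to 378 CPM in females, 235 to 275 CPM in males) and the 5 biliary markers (709 to 899.6 CPM in females, 861 to 1020.2 CPM in males). The 4 muscle markers summed to 16.5 to 34.6 CPM in females and 18.9 to 34.3 CPM in males, with miR-208a-3p at 0. Of the 7 tested hepatocyte markers 2, and of the 6 tested leukocyte markers 1, were higher in females in edgeR. No other tested marker passed in either direction. Over all tested miRNAs, 3.24% were higher and 3.51% lower in females. The hepatocyte sum, higher in males, was mostly miR-122-5p, which averaged 315746 CPM in females and 363969 CPM in males. These CPM include scaling factors (TMM) of 1.03 to 1.07 in females and 0.917 to 0.983 in males. The unscaled shares of miR-122-5p overlapped near 33.8%. The hepatocyte sum went the other way than its 2 called members. In whole liver, fewer cells of a type and less RNA per cell cannot be told apart.

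The members were a small part of the miRNA counts of liver, most of it under miR-19b-3p and miR-20a-5p. The 10 members summed to 1835, 2546 and 1994 CPM in females and to 2845, 1460 and 2208 CPM in males, which is 0.134 to 0.28% of the counts of a library. CPM are counts per 1000000 after TMM scaling. miR-19b-3p and miR-20a-5p made up 85.2 to 90.7% of the members' summed CPM in every library. The mean sum was 2125 ± 373 CPM for the 3 females and 2171 ± 693 CPM for the 3 males (± SD), a ratio of 0.979 that was not tested, because the sum runs over chosen members. The 8 members made at chromosome 14 alone summed to 630 to 863 CPM in females and 446 to 906 CPM in males. Their ratio of means was 1.06, also not tested.

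miR-19b-3p, of the miR-19 seed family, was the most abundant member and ranked 47 of the 370 tested miRNAs by mean level. It had 1124, 1606 and 1229 CPM in females and 1866, 902 and 1411 CPM in males. The 2 groups overlapped, and male replicates 1 and 2 were the highest and the lowest of the 6 libraries. Its near-identical partner miR-19a-3p was far lower, at 62.3, 108 and 65.3 CPM in females and 103, 39.2 and 67.1 CPM in males. Here too the groups overlapped, with female replicate 2 highest and male replicate 2 lowest. Of the reads counted under the miR-19 seed, 5.08% on average were miR-19a-3p. Reads that carry an error at base 11 could move between these 2 names.

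miR-20a-5p and miR-17-5p share a seed and are known to target the cell-cycle inhibitor Cdkn1a, but their levels lay far apart. miR-20a-5p had 473, 655 and 535 CPM in females and 716, 342 and 509 CPM in males. miR-17-5p had 57.3, 55.6 and 47.3 CPM in females and 43.7, 29.0 and 98.6 CPM in males. The female values of miR-17-5p lay close together, and the male values held both the lowest and the highest of the 6 libraries.

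miR-18a-5p, whose seed differs from that of miR-17 by a single base, stood at 9.91, 9.96 and 10.3 CPM in females and 13.8, 5.67 and 12.3 CPM in males. Its female values spanned a narrow range that lay inside the male one. miR-92a-3p, of the miR-92 seed family, had 81.1, 76.7 and 73.5 CPM in females and 73.9, 112 and 79.8 CPM in males. It was highest in male replicate 2, the library in which most other members were lowest.

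The partner arms were lower still, apart from miR-17-3p. miR-17-3p had 20.5, 27.7 and 24.5 CPM in females and 19.9, 25.7 and 20.8 CPM in males, and varied least of the 8 tested members, 1.39-fold between its highest and lowest library. miR-92a-1-5p had 4.79, 4.98 and 7.41 CPM in females and 7.75, 3.78 and 8.32 CPM in males. The groups of both arms overlapped. The remaining pair was near the limit of detection. miR-20a-3p had 11, 5 and 4 counts in females and 9, 1 and 11 in males. miR-18a-3p had 3, 1 and 1 counts in females and 2, 2 and 4 in males. These 2 did not pass the filter on low counts and entered no test of abundance.

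**Figure D1:**
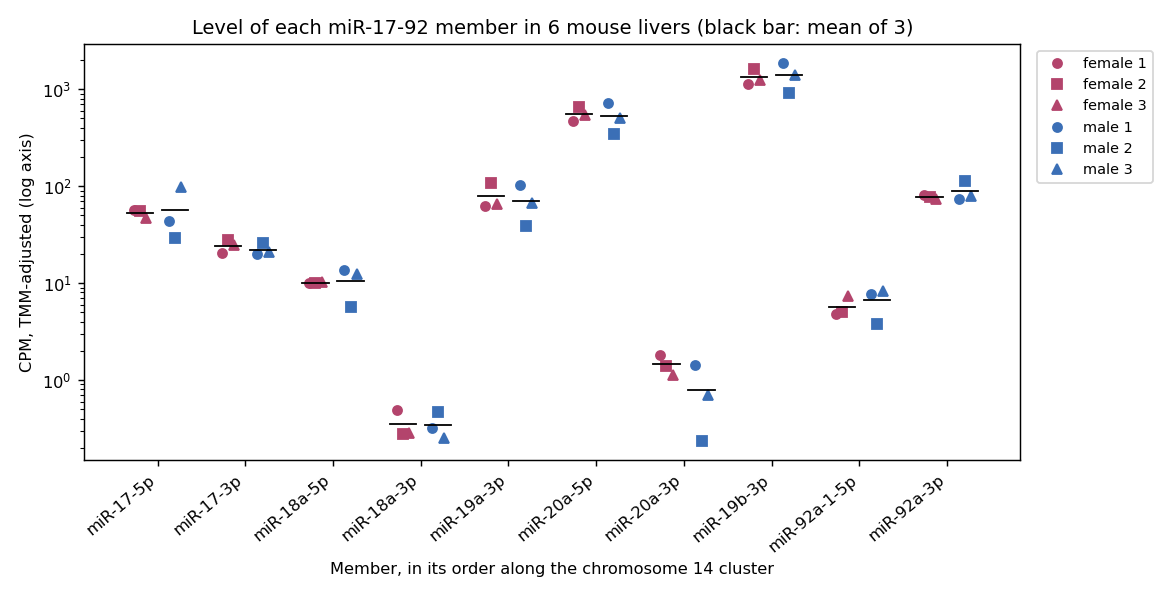
CPM of the 10 members on a log axis, in their order along the cluster, with a point for each library, females left of males, and a black bar for the mean of 3. miR-19b-3p (902 to 1866 CPM) and miR-20a-5p (342 to 716 CPM) stand above all others, and the female and male points overlap for every member.

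Ordered by the mean over the 6 libraries, the members ran from miR-19b-3p (1356 CPM) and miR-20a-5p (538) through miR-92a-3p (82.9), miR-19a-3p (74.1), miR-17-5p (55.3) and miR-17-3p (23.2) to miR-18a-5p (10.3), miR-92a-1-5p (6.17), miR-20a-3p (1.12) and miR-18a-3p (0.35). Of the 9 neighbouring pairs, 6 kept this order in all 6 libraries. The pairs miR-92a-3p over miR-19a-3p (4 of 6 libraries) and miR-19a-3p over miR-17-5p (5 of 6) did not differ beyond their spread, with mean log2 ratios of 0.23 (SD 0.74) and 0.44 (SD 0.63). miR-20a-3p over miR-18a-3p held in 5 of 6 libraries, with a mean log2 ratio of 1.47 (SD 1.25). Among the 8 members with a single locus, all cut from the same primary transcript, mean levels lay between 0.35 and 538 CPM.

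No member passed the test for a difference between the sexes. Of the 10 members, 8 passed the filter and were tested, and 0 passed an adjusted p of 0.05 (edgeR quasi-likelihood test, Benjamini-Hochberg over 370 miRNAs), beside 6.76% of all tested miRNAs. In each direction the count of members was 0, beside 3.24% of all tested miRNAs that were higher and 3.51% that were lower in females. At an unadjusted p under 0.05 the count was also 0, against 18.1% of all tested miRNAs. DESeq2 and limma-voom called 0 members too, against 8.38% and 4.59% of all. For none of the 8 did the female and male ranges separate, as they did for 21.6% of the tested miRNAs. With 8 tested, these counts do not set the members apart from the whole. Log2 fold changes, female over male, ran from -0.29 to 0.16 with a median of -0.10, beside a median of -0.01 over all 370, and 3 were positive and 5 negative.

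The 95% intervals give the differences that these 6 animals left possible for each member. For miR-19b-3p edgeR estimated a log2 fold change of -0.08 with an SE of 0.23 (adjusted p = 0.894), and its 95% interval reached from a 0.672-fold to a 1.33-fold level in females relative to males. For miR-20a-5p the edgeR estimate was 0.08 with an SE of 0.23 (adjusted p = 0.894), with an interval of 0.748 to 1.5-fold. For miR-92a-3p the edgeR estimate was -0.20 with an SE of 0.20 (adjusted p = 0.694), with an interval of 0.647 to 1.18-fold. Those 3 intervals leave out a doubling and a halving.

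The other tested members had wider intervals, apart from miR-17-3p, at 0.792 to 1.51-fold. The log2 fold changes were 0.16 for miR-19a-3p, 0.13 for miR-17-3p, -0.11 for miR-18a-5p, -0.12 for miR-17-5p and -0.29 for miR-92a-1-5p. Their adjusted p in edgeR lay between 0.723 and 0.896. The widest reach downward was that of miR-92a-1-5p, to 0.495-fold, and the widest upward that of miR-19a-3p, to 1.82-fold.

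**Figure D2:**
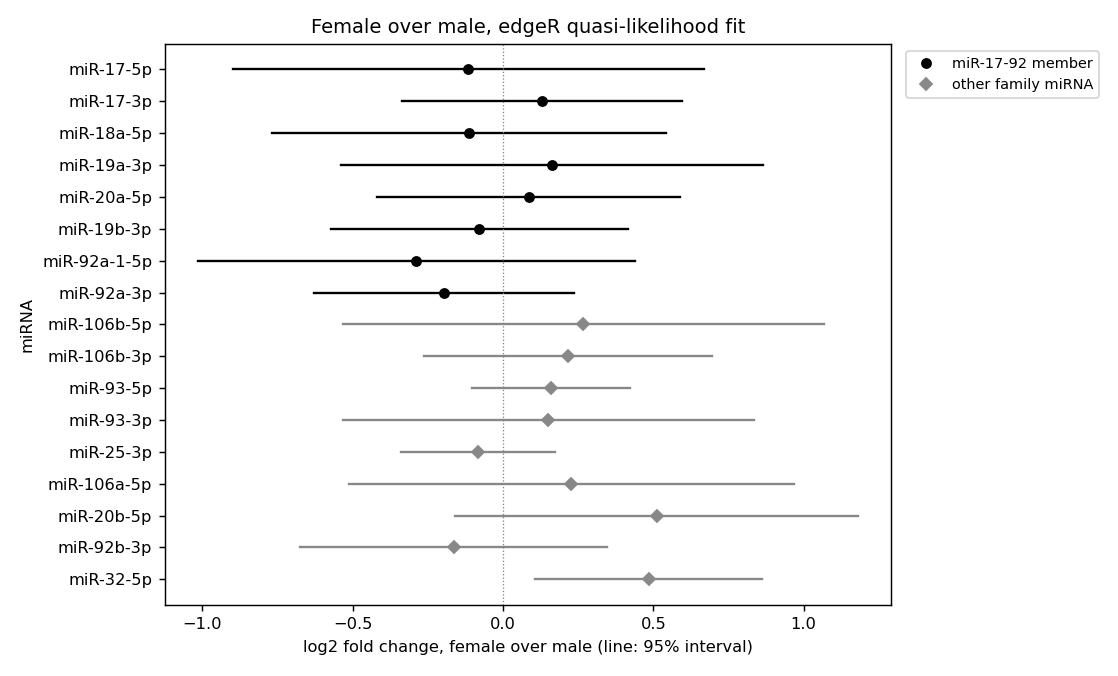
Log2 fold change, female over male, of the 8 tested members (black circles) and 9 tested miRNAs of the paralogous clusters and shared seeds (grey diamonds), with 95% intervals from the edgeR fit. All 8 member intervals include 0, and their estimates lie between -0.29 and 0.16.

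The members varied widely between single males. For 7 of the 8 tested members the SD of the CPM was larger in males than in females, as it was for 61.4% of all tested miRNAs. In male replicate 2, 6 of the 8 tested members were at their lowest of the 6 libraries. There miR-17-5p stood at 0.48, miR-19a-3p at 0.484, miR-18a-5p at 0.504, miR-92a-1-5p at 0.568, miR-20a-5p at 0.592 and miR-19b-3p at 0.623 times its mean in the other 5 libraries. The remaining 2 tested members went the other way in that library: miR-92a-3p stood at 1.46 and miR-17-3p at 1.14 times the mean of the others. A feature that goes with this split is base composition. The 2 members above their mean have 57.1% (miR-92a-3p) and 54.5% (miR-17-3p) G and C, and the 6 below it have 34.8 to 47.8%.

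Base composition also went with the deviation of that library over the whole table, a relation looked for after the members' values were seen. Among 322 tested miRNAs with a RefSeq sequence, the median miRNA with under 40% G and C stood at 0.819 times its mean in the other 5 libraries (n = 69). The median was 0.971 from 40 to 50% (n = 114), 1.05 from 50 to 60% (n = 100) and 1.36 from 60% upward (n = 39). Across these 322 miRNAs, which share the library and its depth, the correlation of G and C content with the log2 deviation was 0.30 in male replicate 2, -0.24 in male replicate 1 and -0.21 in female replicate 2, and between -0.01 and 0.05 in the other 3 libraries. The summed leukocyte markers were also lowest in male replicate 2, at 2903 CPM. The hepatocyte and stromal sums were highest there, at 466040 and 12795 CPM. The part of base composition and of cell-type content in the members' values was not tested.

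**Figure D3:**
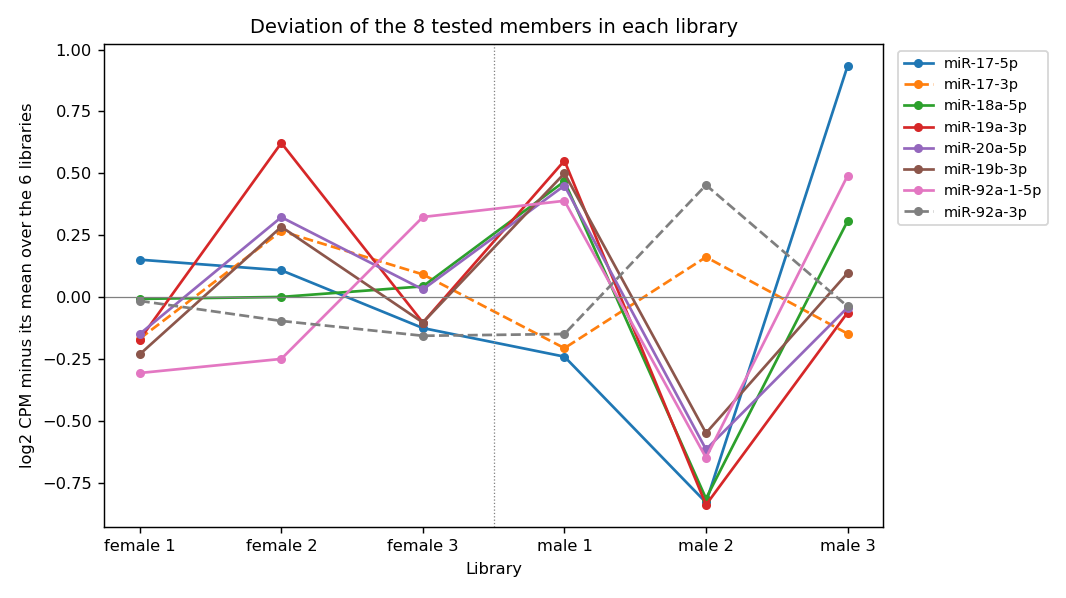
Log2 CPM minus its mean over the 6 libraries for each of the 8 tested members, with females left of the dotted line and males right of it. In male replicate 2, 6 members drop by 0.55 to 0.84 on the log2 scale while miR-92a-3p and miR-17-3p (dashed) lie at 0.45 and 0.16, and in male replicate 3 miR-17-5p stands at 0.93.

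Leaving out male replicate 2, log2 fold changes were -0.14 for miR-20a-5p, -0.12 for miR-19a-3p and 0.01 for miR-92a-3p, each with its sign turned, and 0 members passed. miR-17-5p depended on male replicate 3, the deepest library, where it stood at 2.12 times its mean in the other 5. Without that library its log2 fold change was 0.55 (adjusted p = 0.321, edgeR).

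Within a library, some members kept a fixed ratio and others did not. Over the 28 pairs of tested members, the steadiest ratio was miR-19b-3p to miR-20a-5p, which ranged from 2.3 to 2.77 and had an SD of 0.10 on the log2 scale. The ratios of miR-19a-3p to miR-20a-5p (SD 0.18) and to miR-19b-3p (0.21) came next. At the other end lay miR-19a-3p against miR-92a-3p (0.74), miR-17-5p against miR-92a-3p (0.73) and miR-17-5p against its own partner arm miR-17-3p (0.68). The 2 miRNAs of the steadiest ratio are also the 2 most abundant members.

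The 2 arms of a hairpin come from the same precursor, and their ratio needs no scaling between libraries. It was compared for miR-17, miR-18a and miR-20a, the single-locus hairpins with both arms among the members. The miR-19a hairpin, whose 5p arm is not a member, was left out. That arm had 0, 1 and 0 counts in females and 2, 0 and 1 in males. For miR-17, the 5p arm was counted 2.8, 2.01 and 1.93 times as often as the 3p arm in females and 2.19, 1.13 and 4.75 times in males. The male values of this ratio lay on both sides of the female ones. The log2 ratio averaged 1.14 ± 0.29 in females and 1.18 ± 1.04 in males (SD, n = 3 each), a difference of -0.04 (exact two-sided permutation test, p = 1). For miR-18a the 5p arm exceeded the 3p arm 20 to 36-fold in females and 12 to 48.5-fold in males, with a difference of -0.18 in the log2 ratio (exact permutation p = 0.8).

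Of the 3 hairpins compared, miR-20a was the most one-sided, with 21094 counts on its 5p arm and 41 on its 3p arm. The 5p to 3p ratio was 260, 474 and 470 in females and 503, 1449 and 728 in males, so each female value lay below each male value. The log2 ratio averaged 8.47 ± 0.44 in females and 9.42 ± 0.51 in males (SD, n = 3 each), a difference of -0.95. The exact two-sided permutation p was 0.1, the smallest that 3 animals against 3 allow, and 0.3 after Benjamini-Hochberg adjustment over the 3 hairpins. This separation rests on 20 female and 21 male counts of miR-20a-3p, from libraries of unequal depth.

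**Figure D4:**
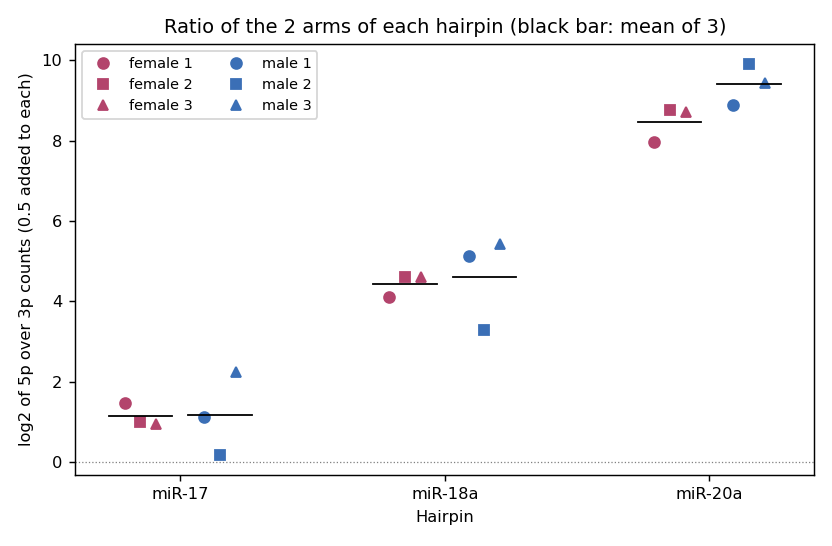
Log2 of 5p over 3p counts, with 0.5 added to each, for the 3 single-locus hairpins with both arms among the members. Females are left of males, with a black bar for the mean of 3. The miR-17 arms are closest (0.17 to 2.25), the miR-20a arms farthest apart (7.96 to 9.92), and the male libraries spread more widely than the female ones for each hairpin.

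The counts of miR-19b-3p and miR-92a-3p cannot be divided between chromosomes 14 and X, but the opposite strands of those hairpins differ in sequence between the loci. Their sequences are shown because they tell the 2 loci apart.
miR-92a-1-5p (chromosome 14): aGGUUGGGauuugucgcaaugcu
miR-92a-2-5p (chromosome X): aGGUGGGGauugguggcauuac
miR-19b-1-5p (chromosome 14): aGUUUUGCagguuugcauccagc
miR-19b-2-5p (chromosome X): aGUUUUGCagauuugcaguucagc
Over all 6 libraries, miR-92a-1-5p had 269 counts and miR-92a-2-5p had 1, so 99.6% came under the chromosome 14 name (95% exact binomial interval 98.0 to 99.99%, counting error only). For the miR-19b hairpins the counts were 50 and 2, or 96.2% under chromosome 14 (86.8 to 99.5%). How far the opposite strands mirror the shared arms was not tested.

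The cluster has paralogues that share its seeds: the miR-106b-25 cluster within Mcm7 on chromosome 5 and the miR-106a-363 cluster on the X chromosome. Sequences that bear on the shares are printed with the seed in capitals.
miR-93-5p: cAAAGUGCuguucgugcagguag
miR-106a-5p: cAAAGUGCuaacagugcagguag
miR-25-3p: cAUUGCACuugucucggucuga
miR-32-5p: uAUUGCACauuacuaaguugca
In the miR-17 seed family, the members miR-17-5p and miR-20a-5p supplied 17.3, 19.1 and 18.9% of the counts in females and 22.8, 13.1 and 22.0% in males. The chromosome 5 miRNA miR-93-5p supplied 76.6 to 86.4% in each library. The female shares lay within the male range, and male replicate 2 was lowest.

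In the miR-92 seed family the cluster's share was small. miR-92a-3p made up 3.54, 3.23 and 3.55% in females and 3.41, 4.31 and 3.53% in males, while miR-25-3p of chromosome 5 made up 88.4 to 90.4%. The reverse held for the miR-18 seed. miR-18a-5p made up 85.7 to 97.3% of the miR-18 seed counts in females and 92.3 to 97.8% in males. The miR-19 seed was counted under miR-19a-3p and miR-19b-3p alone. Both are members and no other counted name has that seed, so this share was fixed in advance. Of it, 93.7 to 95.8% was miR-19b-3p, which is also made at the X locus.

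**Figure D5:**
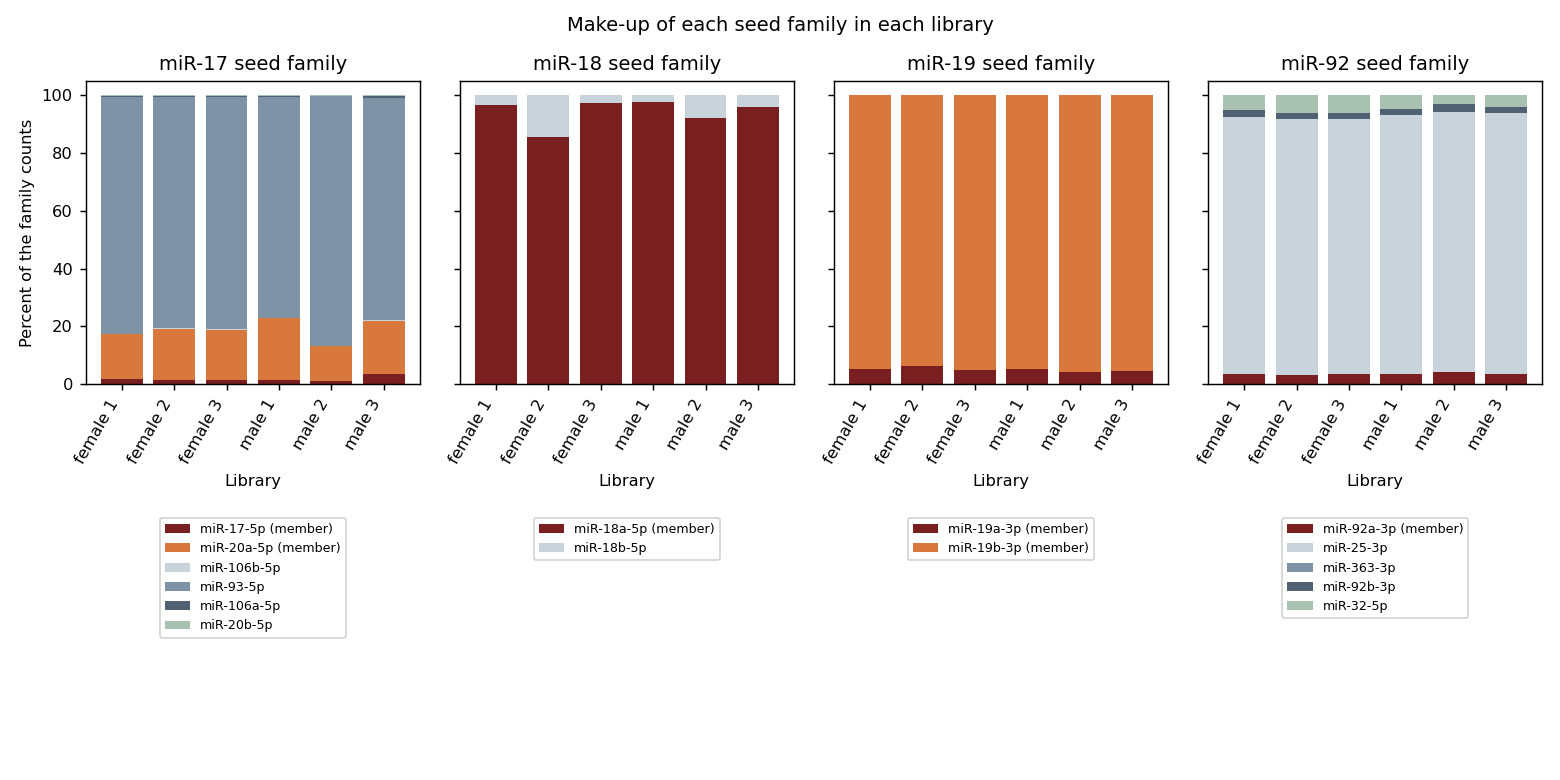
Percent of the counts of each of the 4 seed families by miRNA, in each library, with members of the cluster in dark red and orange and other miRNAs in grey, blue and green. The cluster's names hold 85.7 to 97.8% of the miR-18, 13.1 to 22.8% of the miR-17 and 3.23 to 4.31% of the miR-92 family. The miR-19 family has no name outside the members, so its share was fixed in advance.

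None of the related miRNAs passed the test for sex. The list held 22 other names: 6 of the chromosome 5 cluster, 10 of the X cluster, 4 of other loci with a miR-92 seed arm, and 2 opposite strands of the chromosome 14 hairpins, miR-19a-5p and miR-19b-1-5p. Of the 22, 9 passed the filter and 0 of the 9 passed the adjusted threshold in edgeR, beside 6.76% of all tested miRNAs. Their log2 fold changes were 7 positive and 2 negative with a median of 0.22, beside -0.01 over all 370. DESeq2 and limma-voom called 0, beside 8.38% and 4.59% of all. At an unadjusted p under 0.05 there was 1 of the 9, beside 18.1% of all. With 9 tested, these counts do not set the related miRNAs apart from the whole. The 1 was miR-32-5p, a miR-92 seed miRNA from an intron of Tmem245 on chromosome 4. It stood at 117, 141 and 123 CPM in females and 102, 79.8 and 90.1 CPM in males, each female above each male (log2 fold change 0.48, SE 0.17, adjusted p = 0.132, edgeR). The groups also separated for miR-20b-5p of the X cluster, which shares the miR-17 seed, with 6.94, 10.2 and 7.98 CPM in females and 6.8, 3.31 and 6.67 CPM in males. Its log2 fold change, 0.51 (SE 0.31, adjusted p = 0.434, edgeR), was the largest of the 9. These were 2 of the 9, beside 21.6% of all tested miRNAs.

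The miR-106b-25 cluster was higher than the chromosome 14 cluster, at 4353 to 5143 CPM summed over 6 names in females and 4221 to 4841 CPM in males. Its main products were miR-93-5p and miR-25-3p. miR-93-5p averaged 2655 ± 282 CPM over the 3 females and 2376 ± 222 CPM over the 3 males (± SD). miR-25-3p averaged 1992 ± 144 CPM over the 3 females and 2110 ± 202 CPM over the 3 males. The names found at the X locus alone summed to 18.2 to 24.9 CPM in females and 10.2 to 23.1 CPM in males. The most abundant of these, miR-106a-5p, differs from miR-17-5p by U10A alone, so reads could be shared. It had 14.2, 11.6 and 9.41 CPM in females and 7.91, 5.67 and 15.4 CPM in males. Like miR-17-5p, it was lowest in male replicate 2 and highest in male replicate 3.

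Of the 236 other tested miRNAs with a mean of at least 10 CPM, 5 had profiles over the 6 libraries most like the mean log2 profile of the 6 tested single-locus members. Likeness was the SD of the log2 difference over the 6 libraries, which was 0.07 for miR-30c-5p, 0.11 for miR-130a-3p, 0.13 for miR-27a-3p, 0.14 for miR-29b-3p and 0.15 for miR-350-3p. miR-30c-5p had 1806, 2251 and 2119 CPM in females and 2109, 1290 and 2365 CPM in males. Each of the 5 was lowest in male replicate 2, as the mean profile of the members was. Because they were chosen by likeness to that profile, this is no separate observation.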

How the data were processed

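Small RNA libraries were made with a Qiagen kit from total RNA of liver kept in an RNA-stabilising buffer, per the labels' protocols. The deposited values are estimated counts per mature miRNA, which the authors did not normalise. Partek, Bowtie and mm10 are named in the submitters' processing notes, with trimming, multi-mapping and deduplication not given in the sources used here. Adapter ligation is known to favour some sequences, so levels of different miRNAs are approximate. Of 2045 rows, 138 repeated another exactly and were dropped, and the values that were not whole (98.9% were) were rounded, none of them a member's.

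Groups follow the sex in the labels. Replicates were numbered in accession order and pair no animals. All males precede all females in the title numbers, so order and sex cannot be told apart. edgeR 4.0.16 (R 4.3.3) was fitted to all miRNAs with TMM scaling, filterByExpr (minimum count 10, minimum total 15) and the robust quasi-likelihood test, with a threshold of 0.05 after Benjamini-Hochberg adjustment over 370. 1 count is worth 0.0608 to 0.304 CPM. DESeq2 1.42.0 and limma 3.58.1 were alternatives. Named were the members, a list of 22 related miRNAs (paralogues, seed sharers and 2 opposite strands) and the 5 most alike profiles. Members and lists were chosen with earlier results of these data known.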

Additional observations from a re-analysis of the deposited data

How the results depend on the processing

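In all 15 alternative fits 0 tested members and 0 tested related miRNAs passed. The fits tested 8 members and 9 related miRNAs, except with minimum count 50 (7 and 6) and no filter (10 and 22). Calls over all tested miRNAs varied, for example 9 of 399 without female replicate 2 and 32 of 378 without female replicate 1. Of 119 member fold changes under these fits, 105 kept their sign and 14 changed it, none past the threshold. With no scaling factor, which shifted the median over all tested miRNAs to 0.13, they became 0.018 for miR-17-5p, 0.016 for miR-18a-5p and 0.048 for miR-19b-3p, and 0.059 for miR-25-3p. With upper-quartile factors, which shifted it to -0.10, miR-20a-5p became -0.023. When 1 library was left out, log2 fold changes ranged from -0.42 to 0.55 for miR-17-5p, -0.36 to 0.052 for miR-18a-5p, -0.14 to 0.51 for miR-19a-3p, -0.14 to 0.35 for miR-20a-5p, -0.31 to 0.16 for miR-19b-3p and -0.33 to 0.010 for miR-92a-3p. Among paralogues they ranged from -0.11 to 0.70 for miR-106b-5p, -0.16 to 0.28 for miR-93-3p, -0.00062 to 0.79 for miR-106a-5p and -0.34 to 0.098 for miR-92b-3p. The arm difference ranged from -0.54 to 0.49 for miR-17 and -0.84 to 0.23 for miR-18a, and was 0.011 for miR-18a with no count added. The cause of these sign changes was not tested. The miR-20a arm difference ranged from -1.21 to -0.69. Leaving out 1 library could not turn its sign, because each female value lay below each male value. The summed level in females over males ranged from 0.841 to 1.16. Without miR-19b-3p and miR-92a-3p as members, by construction, the cluster's share of the miR-19 family was 5.08% and of the miR-92 family 0%. No paired analysis was possible because the labels give no number shared by a female and a male. Depth limits miR-18a-3p and miR-20a-3p, which had at most 4 and 11 counts in a library.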
